A study of Homo sapiens with 11 samples.

Results

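Epithelial junction and differentiation genes are the genes whose products hold epithelial cells together and give them their simple-epithelial shape: the cadherins and catenins of adherens junctions, the claudins and scaffolds of tight junctions, polarity proteins, desmosome and plaque proteins, surface proteases and their inhibitors, simple keratins, and a few surface, lipid, transcription and cornified-envelope genes. The 39 genes were taken by name, as every probe whose gene name on the array was one of them, out of 30484 gene names on the array. They were carried by 56 probes.

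PC-3, a prostate cancer cell line of epithelial origin, received transfection reagent without RNA (mock), a miRNA duplex (miR-520c, miR-302a, miR-520f, miR-372 or miR-373), or dsEcad640, a synthetic duplex fully complementary to a stretch of the CDH1 promoter. RNA was taken 24 h later and measured on 11 one-colour arrays, each of which held 150 ng of RNA mixed from 4 transfections. The comparison asked what dsEcad640 and the miRNAs that share its seed do to gene expression in the same cells. The arrays fell into 3 sets, each of which was 1 slide. In set 1 were dsEcad640 (sample 2), miR-302a (3), miR-372 (4) and 1 mock array (1). In set 2 were 1 mock array (8), miR-373 (7) and miR-520f (6). In set 3 were 2 mock arrays (9 and 11), a second miR-372 array (10) and miR-520c (12). All groups shared the same untreated parental line, and the miR-520f, miR-302a, dsEcad640, miR-373 and miR-520c groups had 1 array each. One label of sample 6 names the duplex miR-530f and its other labels miR-520f, and it was taken as miR-520f. Whether the 4 mock arrays came from separate mixes was not given, so the p-values measure the spread between arrays, which may be technical.

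In epithelia, E-cadherin (CDH1) joins neighbouring cells through calcium-dependent contacts, and its cytoplasmic tail binds the catenins, which link it to actin. Tight junctions seal the space between cells, desmosomes anchor the keratin filaments, and KRT8 and KRT18 form the obligate filament pair of simple epithelia. Loss of CDH1 together with such genes is a hallmark of the epithelial-mesenchymal transition, in which ZEB1, ZEB2 and the SNAI factors repress CDH1 by binding E-boxes in its promoter.

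The mature strands of the 5 miRNAs are shown because the seed, bases 2 to 8 from the 5′ end and written in capitals, is what defines the groups. They were read from RefSeq (GRCh38.p14).
miR-302a: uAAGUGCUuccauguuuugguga
miR-372: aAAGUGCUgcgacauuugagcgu
miR-373: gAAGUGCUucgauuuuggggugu
miR-520c: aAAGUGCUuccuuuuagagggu
miR-520f: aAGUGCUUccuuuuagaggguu
The first 4 had the seed AAGUGCU. The guide strand of dsEcad640 has this seed too. The 6 arrays of these 5 duplexes are called the common-seed arrays. In miR-520f the same 7 bases begin at position 1, so that its own seed is AGUGCUU, and its array was kept apart.

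Levels are log2 processed signals after subtraction of the array's own 75th percentile, so that 0 is the level of a fairly bright probe. A level compares arrays for 1 probe and does not rank genes against each other. Of the 56 probes, 50 exceeded background clearly, by the scanner software's own mark, on 6 or more of the 11 arrays and were tested, which left 35 of the 39 genes. CTNNA1, the alpha-catenin that links the cadherin complex to actin, TJP3, a tight junction scaffold, EHF, an epithelial ETS factor, and IVL, the cornified-envelope protein involucrin, had no probe that passed. The EHF probe was well above background on 0 arrays, the IVL probe on 1 (miR-372 sample 4), the TJP3 probe on 5, and the CTNNA1 probes on 0 and 3. PC-3 is known to lack a functional CTNNA1 gene. Of the 35 genes tested, 31 were well above background on all 11 arrays by their brightest probe, which is the probe given for a gene unless another is named. The exceptions were CRB3 (10 arrays), DSC2 (9), CDS1 (8) and SCEL (7).

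The arrays differed in how many dim probes were detected. Of all probes, 54.3% to 72.7% carried that mark on 10 arrays and 88.1% carried it on miR-372 sample 4, on which several dim member probes were also raised. No spot was saturated. The part of this difference in the results was not tested, and the counts and the values most raised on miR-372 sample 4 are given without it as well.

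Transfection of the common-seed duplexes raised 4 of the 35 genes in a limma fit with the set as a block, at a Benjamini-Hochberg adjusted p under 0.05, and lowered none. The raised genes were the keratins KRT8 and KRT18, the desmosomal plaque protein PKP3, and SCEL, a cornified-envelope precursor. The 4 genes are 11.4% of the genes tested, beside 2.22% called higher and 2.14% called lower among all 19971 genes with a tested probe, 1 probe a gene. By probe, 7 of the 50 member probes (14%) were called higher and 0 lower, beside 2.14% higher and 2.05% lower of all 27118 probes tested, of which 4.19% were called in either direction. Without miR-372 sample 4 the same 4 genes were called higher and 1 gene, CDS1, lower, beside 7.08% of all probes called. SCEL passed the filter mainly through duplex arrays, so the counts were also taken over the 31 genes detected on all arrays, in which 3 were called higher and 0 lower, beside 2.69% called higher of the 15968 genes detected on all arrays.

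The fitted change was above 0 for 29 of the 35 genes and below 0 for 6, beside 55.7% of all genes above 0. The median log2 fold change was 0.25 over the 35 genes and 0.32 over the 31, beside 0.04 over all genes. Without miR-372 sample 4 it was above 0 for 28 of the 35, with a median of 0.24, beside 50.3% of all genes and a median of 0.0022. On all 6 common-seed arrays, 18 of the 35 genes (51.4%) lay above the mock mean of their set and 0 lay below it throughout, beside 16.9% and 11.8% of all genes. Among them was SCEL, which had no measured level on the miR-373 array. Over the 31 genes detected on all arrays the count was 17, beside 20.0% of such genes. Without miR-372 sample 4, 18 of the 35 genes lay above mock on the 5 common-seed arrays left, beside 18.3% of all genes. On all 7 duplex arrays, miR-520f included, 14 of the 35 (40%) lay above and 0 below throughout, beside 13.8% and 10.1% of all genes. The arrays of a set share their mock arrays, so these counts are not independent across arrays, and no test was made of the list as a whole. The members were chosen with earlier results of these data known. Their shares and medians beside those of all genes, also among the called genes, are therefore descriptive only.

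**Figure D1:**
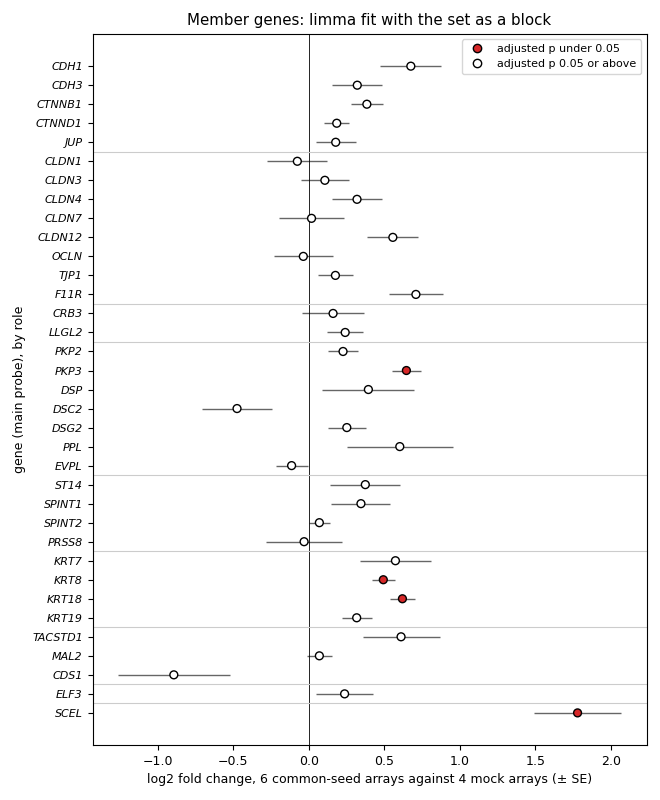
Log2 fold change of the 35 tested genes (x axis, points with ± SE from the limma fit, 6 common-seed arrays against 4 mock arrays) by gene and role (y axis, grey lines part the roles). The red points, KRT8, KRT18, PKP3 and SCEL, have an adjusted p under 0.05, and 29 of the 35 points lie right of 0.

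CDH1, the gene that dsEcad640 is directed against, was present at a low level. Its probe (A_23_P206359, chr16:67426715-67426774, hg18) read -4.14 on mock sample 1, -3.97 on mock sample 8, -3.16 on mock sample 9 and -3.94 on mock sample 11. The duplex arrays read -3.25 for dsEcad640, -3.69 for miR-302a, -3.46 and -2.52 for miR-372, -3.85 for miR-373, -2.66 for miR-520c and -3.22 for miR-520f. The groups overlapped, since mock sample 9 lay above 5 of the 7 duplex arrays, yet each duplex array lay above the mock mean of its own set. The differences within sets were 0.89 for dsEcad640, 0.45 for miR-302a, 0.69 and 1.03 for miR-372, 0.11 for miR-373, 0.88 for miR-520c and 0.75 for miR-520f. The fit gave a log2 fold change of 0.68 ± 0.20 (SE), a fold of 1.60, with an adjusted p of 0.102 by limma. CDH1 did not pass the threshold under any of the 17 alternative settings, where its log2 fold change ran from 0.27 to 0.84 and its adjusted p from 0.0569 to 0.704. With quantile normalization it was 0.42, and with normexp background correction 0.27.

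The other members of the adherens junction lay in the same direction with smaller values and none passed the test. The fitted log2 fold change was 0.32 ± 0.17 for CDH3, the P-cadherin gene next to CDH1 on chromosome 16, 0.39 ± 0.11 for CTNNB1 (beta-catenin, adjusted p = 0.0821 by limma) and 0.19 ± 0.08 for CTNND1 (p120-catenin). For JUP (plakoglobin) it was 0.18 ± 0.13. CDH3 was 0.97 above mock on miR-372 sample 4, and without that array its change was 0.24 ± 0.10. CTNNB1 lay above the set's mock mean on all 6 common-seed arrays, by 0.19 to 0.62. Its second probe gave 0.11 ± 0.24, with 4 of 6 arrays above. CTNND1 had 4 probes that passed the filter, and their changes ran from -0.14 to 0.26.

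None of the 8 tested tight junction genes passed. F11R, the junctional adhesion molecule JAM-A, came closest. Its probe (A_24_P319364) read 2.33, 2.46, 2.85 and 2.93 on mock samples 1, 8, 9 and 11, 3.25 for dsEcad640, 2.74 for miR-302a, 2.83 and 3.65 for miR-372, 2.69 for miR-373, 4.17 for miR-520c and 2.99 for miR-520f. Every duplex array lay above the mock mean of its set, although the 2 groups overlapped across sets. The log2 fold change was 0.71 ± 0.18 with an adjusted p of 0.0692 by limma, and it passed under 3 of the 17 alternatives. The second F11R probe gave 0.81 ± 0.31, with miR-373 below its mock.

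The claudins, the strand proteins of tight junctions, differed from each other. CLDN12 had a log2 fold change of 0.56 ± 0.17 (adjusted p = 0.108 by limma) and lay above mock on all 7 duplex arrays, by 0.34 to 0.96. CLDN4 had 0.32 ± 0.16, CLDN3 0.11 ± 0.16 and CLDN7 0.02 ± 0.22. The 2 CLDN1 probes disagreed. The brighter one gave -0.07 ± 0.20 and the dimmer one 1.10 ± 0.29 (adjusted p = 0.0787 by limma). Without miR-372 sample 4 the dimmer probe gave 1.00 with an adjusted p of 0.0470, which passed, and with dim signals raised to the lowest signal well above background 0.69 ± 0.17 with an adjusted p of 0.0692. It was well above background on 7 arrays, on neither mock of sets 1 and 2 and not on the miR-373 array, so that its change is in part against background, and in set 1 its level was at least 1.35-fold higher for dsEcad640, at least 1.22-fold higher for miR-302a and at least 1.98-fold higher for miR-372. The tight junction membrane protein OCLN had -0.04 ± 0.19 and its scaffold TJP1 0.18 ± 0.12. The 2 polarity genes, CRB3 and LLGL2, had 0.16 ± 0.20 and 0.24 ± 0.12.

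PKP3, plakophilin 3 of the desmosomal plaque, rose. Its probe (A_23_P95810, chr11:394785-394844, hg18) read 2.87, 2.90, 2.79 and 2.89 on mock samples 1, 8, 9 and 11. It read 3.60 for dsEcad640, 3.60 for miR-302a, 3.39 and 3.41 for miR-372, 3.38 for miR-373, 3.71 for miR-520c and 3.28 for miR-520f. No duplex array fell within the range of the mock arrays. The log2 fold change was 0.65 ± 0.10, a fold of 1.57, with an adjusted p of 0.0151 by limma, and 0.0195 without the set block. Within sets 1, 2 and 3 the common-seed arrays lay above mock by 0.66, 0.48 and 0.72. The call was lost without mock sample 1 (adjusted p = 0.132 by limma), mock sample 8 or miR-373 sample 7 (0.0503 for either), mock sample 11 (0.0511), or the filter on dim probes (0.0604).

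The other desmosome and plaque genes did not pass. DSP (desmoplakin) had a log2 fold change of 0.39 ± 0.30, with 1.34 for miR-520c, and the other common-seed arrays lay between -0.05 and 0.48. PPL (periplakin) had 0.60 ± 0.35, with 1.88 on miR-372 sample 4 and 0.10 to 0.80 on the other common-seed arrays, without sample 4 0.43 ± 0.17. PKP2 had 0.23 ± 0.10 and DSG2, a desmosomal cadherin, 0.25 ± 0.13. EVPL (envoplakin) had -0.11 ± 0.11. DSC2, a desmosomal cadherin of the same chromosome 18 region as DSG2, had -0.47 ± 0.23 (adjusted p = 0.291 by limma), and within sets its values were -1.04 in set 1 and -0.03 in set 3. In set 2 it was not well above background on the miR-373 and miR-520f arrays, which leaves no fold. In set 1 the level was -3.55 for mock, -4.70 for dsEcad640, -4.11 for miR-302a and -4.96 for miR-372. In set 3 the 2 mock arrays read -4.69 and -4.92 beside -4.69 for miR-372 and -4.99 for miR-520c.

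Of the 4 simple keratins, KRT8 and KRT18 rose. KRT18, the type I keratin of simple epithelia, had 4 probes that passed the filter, 3 of which were called. Its brightest probe (A_32_P151544, chr12:51632383-51632821, hg18) read 6.01, 5.77, 5.89 and 6.08 on mock samples 1, 8, 9 and 11, against 6.55 for dsEcad640, 6.62 for miR-302a, 6.48 and 6.61 for miR-372, 6.35 for miR-373, 6.75 for miR-520c and 6.47 for miR-520f. The lowest duplex array lay above the highest mock array. The log2 fold change was 0.62 ± 0.08, a fold of 1.54, with an adjusted p of 0.0101 by limma. Of the 17 alternatives the call was lost in 1, without mock sample 1 (0.0856). Probes A_24_P42136 and A_23_P99320 gave 0.73 ± 0.08 and 0.78 ± 0.11 (adjusted p = 0.00588 and 0.0112 by limma). The fourth probe, A_24_P924957, carries the name KRT18 but is placed on the minus strand by its coordinates, opposite to the other KRT18 probes, so it may not report the KRT18 mRNA. It gave 0.49 ± 0.15 with an adjusted p of 0.109, and on it miR-520f alone was below its mock (-0.10).

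KRT8, the type II partner, lies beside KRT18 on chromosome 12, and both of its probes passed the test. Its brighter probe (A_23_P14072, chr12:51577293-51577352, hg18) read 3.46 on mock sample 1 and 3.89, 4.04 and 3.84 on the dsEcad640, miR-302a and miR-372 arrays of set 1. In set 2 it read 3.39 on mock sample 8, 3.85 for miR-373 and 3.77 for miR-520f, and in set 3 it read 2.96 and 2.90 on mock samples 9 and 11, 3.52 for miR-372 and 3.41 for miR-520c. Set 3 was lower as a whole, and within every set the duplex arrays lay above the mock arrays. The log2 fold change was 0.49 ± 0.08, a fold of 1.41, with an adjusted p of 0.0161 by limma. Without the set block it was 0.58 with an adjusted p of 0.158, which did not pass. The call was also lost without mock sample 1 (0.125), mock sample 8 or miR-373 sample 7 (0.0682 for either), miR-372 sample 10 (0.0533), mock sample 11 (0.0537), or the filter (0.0716). The dimmer KRT8 probe gave 0.88 ± 0.16 (adjusted p = 0.0292 by limma). KRT19 had 0.32 ± 0.10 and lay above mock on all 7 duplex arrays (0.14 to 0.61), and KRT7 had 0.57 ± 0.24; neither passed.

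**Figure D2:**
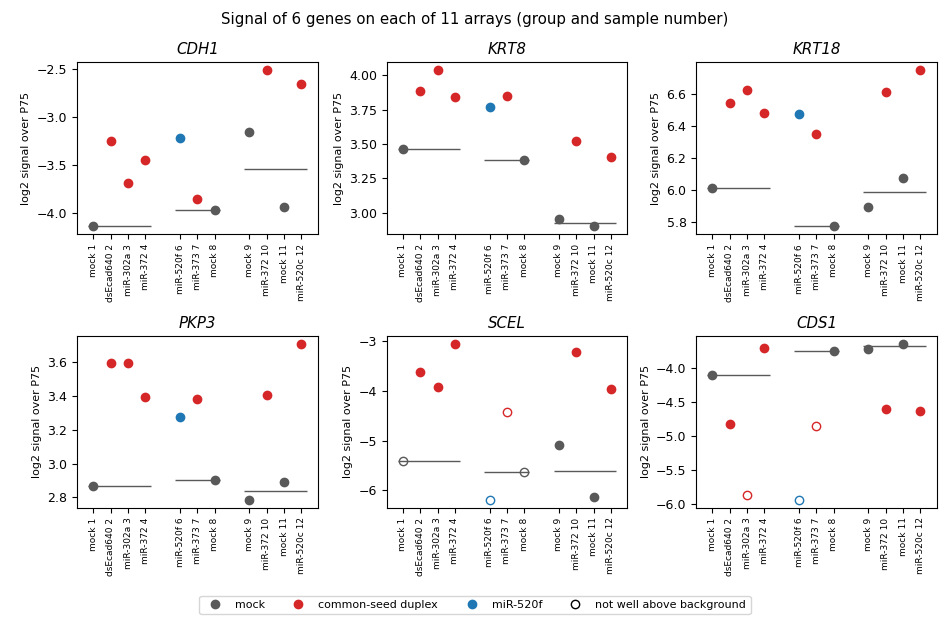
Log2 signal over the array's 75th percentile (y axis) for CDH1, KRT8, KRT18, PKP3, SCEL and CDS1 on the 11 arrays (x axis, ordered by set). Grey points are mock, red points common-seed duplexes, blue points miR-520f, open points not well above background, and grey lines the mock mean of a set. PKP3 and KRT18 show no overlap of duplex and mock arrays, and in CDH1 the mock arrays 9 and 11 stand apart.

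SCEL (sciellin), a precursor of the cornified envelope that stratified epithelia assemble beneath the membrane, had the highest log2 fold change of the genes tested here. Its probe (A_23_P500000, chr13:77116565-77116624, hg18) was dim. It read -5.40, -5.62, -5.08 and -6.12 on mock samples 1, 8, 9 and 11, and was well above background on samples 9 and 11 only. It read -3.62 for dsEcad640, -3.93 for miR-302a, -3.06 and -3.23 for miR-372, -4.43 for miR-373, -3.97 for miR-520c and -6.19 for miR-520f. The 5 common-seed arrays on which it was well above background lay above all mock arrays, and on the miR-373 and miR-520f arrays it had no measured level. The log2 fold change was 1.78 ± 0.29 with an adjusted p of 0.0201 by limma. In set 1, where mock was not well above background, the level was at least 3.17-fold higher for dsEcad640, at least 2.57-fold higher for miR-302a and at least 4.69-fold higher for miR-372. In set 2 neither miR-373, miR-520f nor mock was well above background, so no fold is given. In set 3 it was 5.20-fold higher for miR-372 and 3.11-fold higher for miR-520c than the mock mean. With dim signals raised to the lowest signal well above background the change was 1.69 with an adjusted p of 0.0269. Without miR-372 sample 4 the change was 1.70 with an adjusted p of 0.0131. With normexp background correction it was 0.52 with an adjusted p of 0.115, and the call was also lost without mock sample 1 (0.148), mock sample 8 or miR-373 sample 7 (0.0502 for either), miR-372 sample 10 (0.0533), or the filter (0.0645).

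CDS1 (CDP-diacylglycerol synthase, an enzyme of phospholipid synthesis) had the lowest fitted change. Its probe (A_23_P7250) read -4.11, -3.75, -3.73 and -3.65 on mock samples 1, 8, 9 and 11, -4.83 for dsEcad640, -5.87 for miR-302a, -3.70 and -4.61 for miR-372, -4.86 for miR-373, -4.64 for miR-520c and -5.95 for miR-520f. All duplex arrays other than miR-372 sample 4 lay below every mock array. Where the duplex array was not well above background, the level was at least 2.74-fold lower for miR-302a, at least 1.70-fold lower for miR-373 and at least 1.31-fold lower for miR-520f. The log2 fold change was -0.89 ± 0.37 with an adjusted p of 0.218 by limma, and without miR-372 sample 4 it was -1.07 with an adjusted p of 0.0235, which passed.

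The remaining members did not pass the test. TACSTD1, which is now EPCAM and encodes an epithelial adhesion molecule, had a log2 fold change of 0.61 ± 0.26 and lay above mock on all 7 duplex arrays, by 0.25 to 1.35. Among the proteases and inhibitors, ST14 (matriptase) had 0.37 ± 0.23, its inhibitor SPINT1 0.35 ± 0.20, SPINT2 0.07 ± 0.07 and PRSS8 (prostasin) -0.03 ± 0.25. On miR-372 sample 4 the differences of ST14, SPINT1 and PRSS8 were 0.97, 1.10 and 0.82. Without that array their changes were 0.28 ± 0.16, 0.26 ± 0.12 and -0.15 ± 0.13. MAL2, which serves transport to the apical membrane, had 0.07 ± 0.08, and the epithelial ETS factor ELF3 had 0.24 ± 0.19. ELF3 was 0.83 above mock on miR-372 sample 4, and without that array its change was 0.15 ± 0.12.

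**Figure D3:**
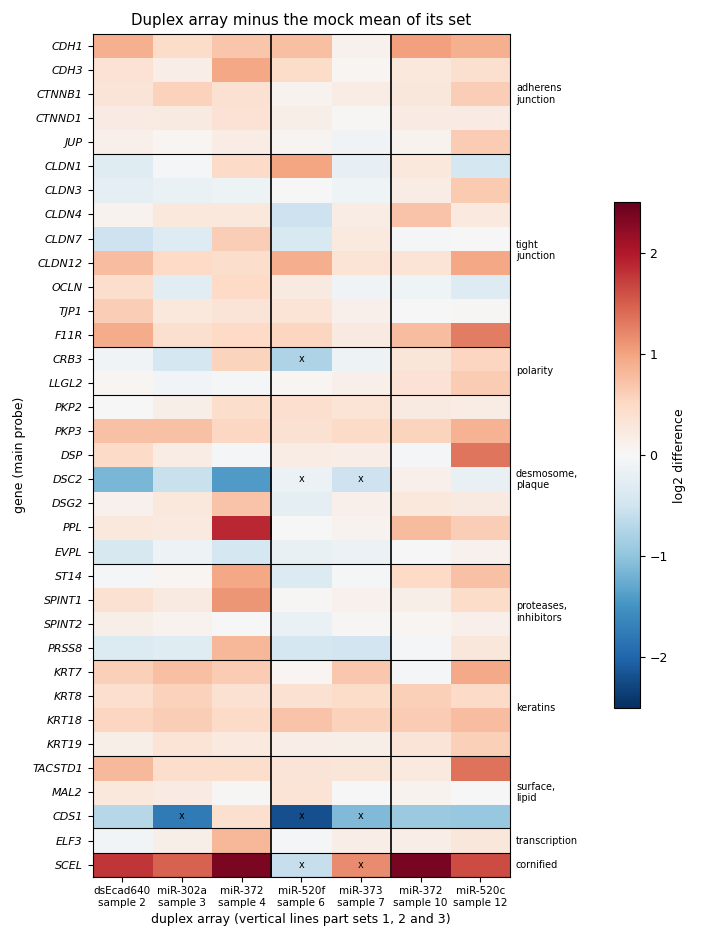
Log2 difference of each duplex array (x axis, vertical lines part the 3 sets) from the mock mean of its set, for the 35 tested genes by role (y axis). Red is higher and blue lower than mock, and x marks a duplex array on which the probe was not well above background. KRT8, KRT18 and PKP3 are red in every column, SCEL in every column but miR-520f (with no measured level for miR-520f and miR-373), and CDS1 is blue in all but miR-372 sample 4.

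The duplexes were also set beside CDH1 array by array. Above the mock mean of the set lay 23 of the 34 other genes for dsEcad640, 24 for miR-302a, 29 and 28 for miR-372 (samples 4 and 10), 23 for miR-373, 28 for miR-520c and 22 for miR-520f. The share of all genes above the mock mean was 44.3%, 49.0%, 63.4%, 53.4%, 41.3%, 57.1% and 39.5% in the same order, beside 67.6%, 70.6%, 85.3%, 82.4%, 67.6%, 82.4% and 64.7% of the 34. Their medians were 0.18, 0.20, 0.44, 0.24, 0.13, 0.47 and 0.06 in the same order, beside medians over all genes of -0.05, -0.01, 0.12, 0.02, -0.06, 0.09 and -0.09. On each array the median of the members thus lay above that of all genes. On miR-372 sample 4 the shift of all genes was the highest of the 7 arrays, and with quantile normalization the median of the 35 genes there moved from 0.44 to 0.25.

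The CDH1 difference of an array was also ranked among the members and among all genes. It was exceeded by 2 of the 34 members (5.88%) for dsEcad640, beside 1.78% of all genes, and by 7 (20.6%) for miR-302a, beside 6.17%. For miR-372 it was exceeded by 8 (23.5%) on sample 4, beside 21.7% of all genes, and by 1 (2.94%) on sample 10, beside 0.882%. It was exceeded by 6 (17.6%) for miR-520c, beside 6.40%, and by 2 (5.88%) for miR-520f, beside 3.69%. For miR-373, where the CDH1 difference was 0.11, it was exceeded by 18 of the 34 (52.9%), beside 24.9% of all genes.

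**Figure D4:**
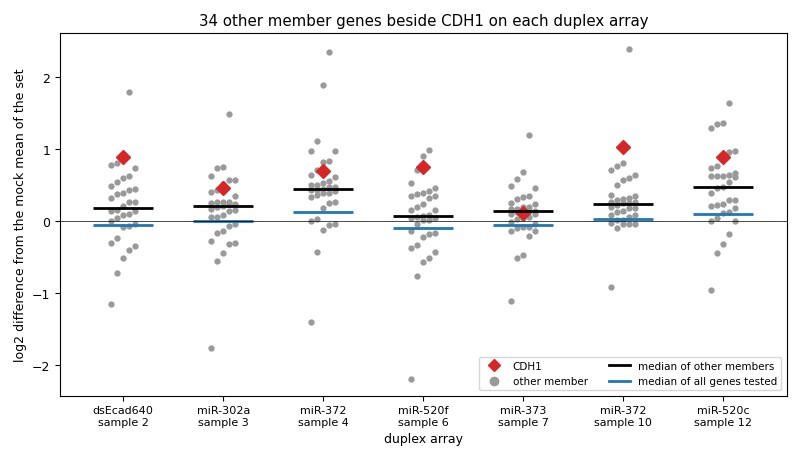
Log2 difference from the mock mean of the set (y axis) on each duplex array (x axis) for CDH1 (red diamonds) and the 34 other tested genes (grey points), with the median of those genes (black) and of all genes tested (blue). The black line lies above the blue line on every array, and the CDH1 diamond stands at the median of the members for miR-373 only.

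The duplexes were also fitted singly. In the fit of each duplex against mock, which left 2 residual degrees of freedom, no probe on the array passed (0%, limma), and between 969 and 4598 probes had an unadjusted p under 0.05. Of the 50 member probes, the share with an unadjusted p under 0.05 was 10% for dsEcad640 beside 7.81% of all probes, 16% for miR-302a beside 3.92%, and 30% for miR-372 beside 9.55%. It was 2% for miR-373 beside 3.58%, 36% for miR-520c beside 17%, and 12.2% of 49 for miR-520f beside 7.54%. For dsEcad640, miR-373 and miR-520f these shares are 5, 1 and 6 member probes, too few to set apart from the share of all probes. Counted by gene, the share of the 35 members was 8.57% for dsEcad640, 14.3% for miR-302a, 25.7% for miR-372, 0% for miR-373, 34.3% for miR-520c and 11.4% for miR-520f. Probes of the same gene are not independent, and the shares were not tested.

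The common-seed duplexes were then compared with miR-520f, which differs from them in the position of the shared bases and elsewhere in its sequence. There was 1 miR-520f array, in set 2, and it was assumed to vary like the arrays of the other groups. No member passed in that contrast (0.0591% of all probes did, 0.0222% higher and 0.0369% lower), and 3 of the 35 (8.57%) had an unadjusted p under 0.05, beside 7.41% of all probes. A p that misses the threshold here does not show that the duplexes act alike. The lowest adjusted p of a member was 0.294 by limma, that of SCEL. Its probe was not well above background on the miR-520f array or on the miR-373 array, the only common-seed array of that slide, so set 2 gives no fold. The mean of the 6 common-seed arrays lay 1.35-fold above the lowest signal well above background on the miR-520f array, without allowance for the set. Only 5 of the 6 were well above background, and the mean includes the miR-373 level, which was not measured, so this is not a strict bound. The difference was -0.35 ± 0.38 for CDH1, 0.19 ± 0.19 for PKP3, -0.10 ± 0.16 for KRT18 and 0.09 ± 0.14 for KRT8. Against mock, miR-520f had no called member (0.658% of all probes were called, 0.299% higher and 0.358% lower) and 8 of the 35 (22.9%) had an unadjusted p under 0.05, beside 12.4% of all probes. The lowest adjusted p there was 0.0717 by limma, for KRT18 probe A_24_P42136 at 0.79 ± 0.15.

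Other genes of the same pathways came from lists outside the 39, and their counts stand beside the 2.22% of all genes called higher and 2.14% called lower. Of 30 tested genes of junctions and polarity, 2 were higher and 0 lower, with a median log2 fold change of 0.15. They were PARD6B, a scaffold of the apical polarity complex (1.13 ± 0.18, adjusted p = 0.0172 by limma), and PVRL2, nectin-2 (0.81 ± 0.18, adjusted p = 0.0480 by limma), whose second probe gave 0.12. The count of lower genes is by brightest probe, and the 2 probes of MPP5 in this list disagreed. Its brighter probe gave -0.07 ± 0.15 and its dimmer one -0.77 ± 0.11 (adjusted p = 0.0130 by limma, 0.168 without the set block). Of 18 tested genes of epithelial identity 1 was higher, the factor KLF5 (1.14 ± 0.15, adjusted p = 0.00979 by limma), and of 8 other keratins 1, KRT80 (1.30 ± 0.17, adjusted p = 0.0102 by limma). None of 12 tested genes of keratinocyte terminal differentiation passed, and their median was 0.04.

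Of the 6 repressors that bind the E-boxes of CDH1, none passed the test: ZEB1 had -0.78 ± 0.47 (adjusted p = 0.401 by limma, but 0.81 above mock on miR-372 sample 4) and ZEB2 -0.89 ± 0.20 (adjusted p = 0.0517 by limma), both on probes well above background on 9 arrays. SNAI1 had 0.39 ± 0.22, TCF3 0.23 ± 0.11 (second probe 0.44 ± 0.11, adjusted p = 0.0577 by limma), SNAI2 -0.24 ± 0.09 and TWIST1 -0.22 ± 0.09. None of the 7 tested mesenchymal markers passed, and their median log2 fold change was 0.09, with 4 above 0 and 3 below. The highest was SPARC at 0.40 ± 0.49 and the lowest FN1 at -0.28 ± 0.08 (adjusted p = 0.0975 by limma), whose other probes gave -0.30 and 0.13. VIM had -0.18 ± 0.13, and its second probe -0.30 ± 0.08 (adjusted p = 0.0859 by limma). The cells' labelled type was checked by markers: EHF and KRT5 were not well above background on any array, whereas KRT8, KRT18 and KRT19 were bright on all. None of the fibroblast, leukocyte or endothelial markers that could be tested (3 genes in each list) passed against mock, which is not a test of presence. The endothelial markers CDH5 and TEK were not well above background on any array, but PECAM1 and KDR were on 11 and VWF on 7. By brightest probe COL1A1, CD3E and CD79A were on 11, CD14 on 10, PDGFRA on 7 and DCN on 6. The background mark of these genes thus does not settle the cell type. Of 6 tested markers of androgen-receptor-positive luminal prostate cells, SLC45A3 was higher (1.12 ± 0.17, adjusted p = 0.0151 by limma).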

How the data were processed

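The authors deposited the scanner output of 11 Agilent arrays from Feature Extraction 10.5.1.1. Per the file headers, the processed signal is an intensity, background-subtracted and detrended within each array and not scaled between arrays. A deposited table of log2 values, normalized by the authors by a method not given in the sources used here, served as an alternative. Probe coordinates are in hg18.

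Control and outlier-marked spots were left out, each array's 75th percentile was subtracted from the log2 processed signals, and repeated spots were averaged by probe. Probes were tested if well above background on at least 6 of 11 arrays (27118 of 41000). limma 3.58.1 in R 4.3.3 was fitted over all of them with 3 classes (mock, common-seed, miR-520f) and the set as a block (6 residual degrees of freedom), with Benjamini-Hochberg adjustment at 0.05. The script was tested on simulated data. A gene is given by its tested probe of highest mean signal. Bounds compare the higher signal with the lowest signal well above background on the dim array, or with the dim probe's own where that was higher. The number of arrays limits the precision.

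Genes named in the text are CDH1, every gene called, the 5 highest and 5 lowest changes, genes whose probes disagree, and called genes of the other lists. The other members are named with their values to account for each. The members and the other lists were chosen with earlier results of these data known. The alternatives were other normalizations, background correction, filters, no set block, and each array other than miR-520f left out. Added after seeing the data was an alternative with dim signals raised to the lowest signal well above background. A search of promoters for E-box letters was not reported, since 22 of the 39 genes had a promoter sequence in the tables used, which makes it void.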

Additional observations from a re-analysis of the deposited data

Results flagged for a closer look

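DSC2, the desmosomal cadherin, stood out for 1 array. Among the 6 common-seed arrays, its level was -4.11 on the miR-302a array and -4.69 on the next highest, a gap of 0.627 of the range of the group, which is past Dixon's critical value for 6 samples. The lowest level of the group was that of the miR-373 array, on which the probe was not well above background. The range, and with it the mark, thus rests in part on a level that was not measured. The miR-302a array is in set 1, where the mock array read -3.55, the highest DSC2 level of the 11 arrays. This was 1 of 22 groups examined, and chance marks about 1 group in 20.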

How the results depend on the processing

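The calls rest on few arrays. For the common-seed duplexes against mock 1136 probes were called. The count was 388 without the set block, 215 without the filter, 2093 with probes well above background on all arrays and 2012 with the authors' values. With each array other than miR-520f left out in turn it was 24 to 1919, the lowest without mock sample 1 and the highest without miR-372 sample 4. Against miR-520f, 16 became 169 with quantile normalization, 29 with normexp, 0 without the filter, 63 with detection on all arrays, 49 with the authors' table and 0 to 335 with an array left out. For miR-520f against mock, 178 became 84 without the block, 454 with quantile normalization, 93 with normexp, 1 without the filter, 337 with detection on all arrays, 289 with the authors' table and 0 to 786 with an array left out. For each duplex against mock the calls summed to 0, to 204 with normexp and to between 0 and 5030 with an array left out, where 1 or 2 residual degrees of freedom remained.

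Of the 35 members, 4 were called, beside 4.19% of all probes, and 1 (KRT18) without the filter, beside 0.524%. With an array left out 0 to 5 were called. It was 0 without mock sample 1, beside 0.0885% of all probes, and 1 (KRT18) without mock sample 8 or miR-373 sample 7, beside 1.01% for either. It was 2 without miR-372 sample 10 or mock sample 11, beside 1.48% and 1.32%, and 5 without miR-372 sample 4, beside 7.08%. CTNNB1 and F11R were called with normexp, with detection on all arrays and with the authors' table. In these settings 5 members were called, of 35, 31 and 31 tested, beside 5.26%, 9.78% and 9.41% of all probes. The small changes turned sign, none of them called: EVPL to 0.068 without the block, OCLN to 0.0066 without the block and between -0.16 and 0.082 with an array left out, and CLDN1 between -0.19 and 0.051 with an array left out. No array or setting tried turned the sign of CDH1, KRT8, KRT18, PKP3, SCEL, F11R, CDS1 or DSC2. The cause of these shifts was not tested.

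No paired analysis was possible because the replicate numbers are sample numbers that no groups share, and the set entered as a block instead. Probes near background have no measured level, which limits SCEL, CDS1, DSC2 and the dimmer CLDN1 probe.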
